A study of Drosophila melanogaster with 2 samples.

Results

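The Rab genes encode a large branch of the small GTPases, and were taken here as the protein-coding genes of FlyBase annotation 6.54 whose symbol is Rab or RabX followed by a number, with at most 1 trailing letter. The rule found 30 of the 13945 protein-coding genes on the chromosome arms (the small chromosome 4 and the X included, Y not). A further 3 genes with 2 trailing letters, Rab9Db, Rab9Fa and Rab9Fb, fell outside it and had no peak summit in any list. The study mapped the DNA bound by CG10147, a Drosophila melanogaster protein with predicted zinc fingers, by chromatin immunoprecipitation and sequencing (ChIP-seq). It has 1 group, with biological replicates numbered 2 and 3. Both came from whole embryos of mixed sex, aged 0 to 24 h, of a single transgenic line that carries GFP at the carboxyl end of CG10147; no treatment is given. Chromatin was sonicated to 200 to 800 bp and precipitated with an anti-GFP antibody. Every tissue and stage of embryogenesis is mixed in each library, so no peak can be assigned to a cell type. An untagged line and the control library were not analysed here.

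Rab proteins switch between a GDP-bound and a GTP-bound form, and each marks the surface of particular membranes. Guanine nucleotide exchange factors (GEFs) load GTP, GTPase-activating proteins (GAPs) end the active state, and effectors such as tethers and motor adaptors act on the vesicle in between. A lipid tail added by a prenyltransferase holds the protein in the membrane. In the fly embryo, Rab proteins serve general secretion and endocytosis in every cell and more specialised traffic in neurons and epithelia.

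The authors deposited 4 peak lists. A list of 30000 peaks came from each replicate, another list of 30000 peaks from the pooled replicates, and a list of 4576 peaks from the irreproducible discovery rate (IDR) procedure. The IDR peaks were the 4576 strongest of the pooled list, 15.3% of it, so their lowest signal was 145 against 31.9 in the pooled list. Signal and rank are the authors' own values from their peak caller and have no replicate error; they are used here within a list only. A promoter peak is a summit no farther than 500 bp from a transcription start site (TSS) of the gene, and a gene body peak is a summit between the gene's ends. Distances to a TSS are negative upstream. Coordinates are 1-based on dm6.

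An IDR promoter peak was present at 11 of the 30 Rab genes (36.7%), namely Rab5, Rab6, Rab7, Rab8, Rab11, Rab14, Rab26, Rab30, Rab32, Rab35 and Rab39, while 20.3% of all protein-coding genes had one. In the pooled list 23 Rab genes (76.7%) had a promoter peak, beside 44.8% of all protein-coding genes. The replicate 2 list held one at 23 Rab genes and 47.3% of all protein-coding genes, and the replicate 3 list at 21 Rab genes (70.0%) and 46.2%. Both replicate lists had one at 20 Rab genes (66.7%) and 39.3% of protein-coding genes. The share of Rab genes was above the share of all genes in each of these lists. Among IDR peaks above the list's median rank the shares were close, with 4 Rab genes (13.3%) and 11.9% of all protein-coding genes. This is a description of positions, since the design has no second group and genes are not replicates.

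**Figure D1:**
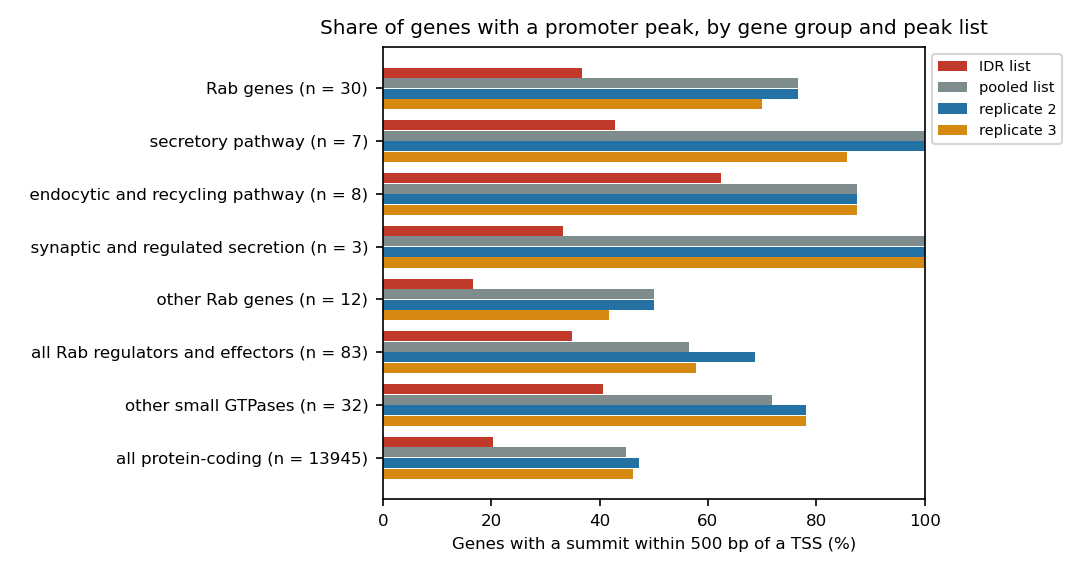
Percent of genes with a promoter peak (bars) in the IDR, pooled, replicate 2 and replicate 3 lists, for all Rab genes, groups of Rab genes, Rab regulators and effectors, other small GTPases and all protein-coding genes. In the IDR list the Rab genes stood at 36.7%, the endocytic and recycling Rab genes at 62.5%, the group of 12 other Rab genes at 16.7% and all protein-coding genes at 20.3%.

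The strongest promoter peaks lay at Rab5, Rab39 and Rab11. Their summit sequences are shown first because these regions carried the highest signals of the family. Each is 101 bases around the IDR summit, read from the Release 6 genome of RefSeq on the strand of the Rab gene. Capitals mark a match, on either strand, to the TATA box TATAAA or to the A+T-rich word AAAATAT, the word TAAAATA or the word TTTAAAA.
Rab5 chr2L:2363724-2363824, minus strand: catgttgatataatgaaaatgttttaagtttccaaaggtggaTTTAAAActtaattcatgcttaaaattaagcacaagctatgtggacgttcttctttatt
Rab39 chrX:7734572-7734672, plus strand: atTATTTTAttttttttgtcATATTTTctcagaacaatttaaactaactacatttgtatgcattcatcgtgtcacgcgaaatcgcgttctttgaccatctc
Rab11 chr3R:21111297-21111397, plus strand: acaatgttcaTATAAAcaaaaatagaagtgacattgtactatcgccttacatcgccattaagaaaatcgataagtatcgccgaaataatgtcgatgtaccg
The bases G and C made up 27.7% of the Rab5 window, 30.7% of the Rab39 window and 34.7% of the Rab11 window. The Rab39 window held the longest run of A and T of the 3, at 17 bases.

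Among the Rab genes of endocytosis and recycling, 5 of 8 had an IDR promoter peak, beside 20.3% of all protein-coding genes. Rab5, the organiser of early endosomes and of endosome fusion, had the strongest peak of the family, at chr2L:2363613-2363905. Its signal was 559 (rank 491) in the IDR and pooled lists, 210.4 (rank 522) in the replicate 2 list and 352 (rank 498) in the replicate 3 list, so its place was alike in all of them. This summit was not at the first TSS of Rab5. It lay 1499 bp into the gene, in an intron, 270 bp upstream of an alternative TSS. The first TSS, divergent from Axud1, had weaker pooled peaks of 73.2, 72.1 and 63.6 around it, at 101, -459 and -224 bp.

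Rab11 marks recycling endosomes and is needed for membrane growth during cellularisation of the fly embryo. Its promoter peak at chr3R:21111155-21111538, 61 bp upstream of the TSS, had signals of 283 (rank 1627) in the IDR and pooled lists, 126 (rank 1443) in replicate 2 and 169.6 (rank 1788) in replicate 3. A second IDR peak in a Rab11 intron, 1869 bp downstream of the TSS, had signals of 230.3 (rank 2257), 71.4 (rank 4099) and 179.6 (rank 1649) in the same order. Both peaks of Rab11 were therefore among the 4576 strongest of each replicate.

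Rab14 acts between endosomes and the Golgi, a role known from mammalian cells. Its promoter peak at chr2L:14355057-14355440 had its summit 104 bp downstream of the TSS and signals of 175 (rank 3468) in the pooled list, 105 (rank 2050) in replicate 2 and 85.9 (rank 4926) in replicate 3. The divergent neighbour l(2)34Fd starts 164 bp from the same summit. An intronic peak at +637 was stronger than the promoter peak in the pooled list, at 252 (rank 1953), and lay on a soft-masked (repeat) base. In replicate 2 the order of the peaks was the other way, with 105 at the promoter and 86.1 in the intron. In replicate 3 the intron had 173 and the promoter 85.9.

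Rab7 directs late endosomes and autophagosomes to lysosomes. Its promoter peak at chr3R:23992806-23993189, 10 bp upstream of a TSS and 82 bp upstream of that of the divergent gene Epp, had signals of 149.6 (rank 4336) in the pooled list, 60.2 (rank 5417) in replicate 2 and 105 (rank 3676) in replicate 3. Rab35, which returns cargo from endosomes to the plasma membrane, had a peak at chrX:20159743-20160126, 63 bp upstream of its single TSS. The Rab35 signals were 176 (rank 3462) in the pooled list, 50.6 (rank 7179) in replicate 2 and 126 (rank 2823) in replicate 3. Both genes were thus lower in the order of replicate 2 than in that of replicate 3.

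The other 3 genes of this group had no IDR promoter peak. Rab9, which acts in traffic from late endosomes to the Golgi, had a promoter peak of 107 (rank 7050) in the pooled list, 52.2 in replicate 2 and 60.7 in replicate 3. Its IDR peak was intronic, 1891 bp downstream of the TSS and on a soft-masked base, with signals of 194 (rank 2974), 101 (rank 2191) and 101 (rank 3860). It was the only Rab gene with an IDR peak in its body and none at a TSS. Rab21, which guides integrin traffic, had a faint promoter peak of 37.1 (rank 25992) in the pooled list, shared with Coa7. Rab4, of fast endosomal recycling, had no peak in any list, and the nearest pooled summit was 4864 bp from its TSS.

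All 7 secretory Rab genes had a pooled promoter peak, beside 44.8% of all protein-coding genes. Of the 7, 3 had an IDR promoter peak, beside 20.3% of all protein-coding genes. Rab8, which carries cargo from the Golgi to the plasma membrane, had the strongest. Its peak at chr3L:19870863-19871246 lay 23 bp downstream of the TSS and 84 bp upstream of that of the divergent gene Usp32. The signals were 222 (rank 2396) in the pooled list, 95.6 (rank 2419) in replicate 2 and 129 (rank 2731) in replicate 3.

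Rab30, a Golgi Rab, had a peak at chr2L:7032511-7032894 with signals of 174 (rank 3508), 78.8 (rank 3429) and 99.0 (rank 3952) in the pooled, replicate 2 and replicate 3 lists. That summit lay 97 bp upstream of Rab30 but 18 bp from the divergent gene Caper. Rab6, which acts at the Golgi in both directions of traffic, had a peak at chr2L:12108887-12109270, 37 bp downstream of its TSS and 338 bp upstream of that of Phae1. The Rab6 signals were 148 (rank 4398) in the pooled list, 51.2 (rank 7054) in replicate 2 and 125 (rank 2867) in replicate 3, and this was the weakest IDR promoter peak of the family.

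The remaining secretory genes had promoter peaks below the IDR list. Rab2, a Golgi Rab that also serves fusion with lysosomes, came closest with 129 (rank 5389) in the pooled list, 77.4 (rank 3543) in replicate 2 and 64.0 (rank 7601) in replicate 3, with the pooled summit between the TSSs of Rab2 and Mob4, 32 and 46 bp upstream of them. Rab1, needed between the endoplasmic reticulum and the Golgi, had 95.2 (rank 8261) in the pooled list and 55.9 in replicate 2, and a weaker summit of 38.0 at another position in replicate 3. Rab18, which is found on lipid droplets, had 81.8 (rank 10145) in the pooled list, 27.6 in replicate 2 and 47.8 in replicate 3. The pooled and replicate 2 summits also lay within 500 bp of a TSS of RpL35, while the replicate 3 summit did not. An IDR summit lay 906 bp from the Rab18 TSS. Rab10, of basement membrane secretion in follicle cells, had 46.3 (rank 20430) in the pooled list and 33.7 in replicate 2, with none in replicate 3, and its summit lay 3 bp from CG17068. These 4 genes spanned a wide range of ranks, from 5389 to 20430.

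All 3 Rab genes of synaptic and regulated secretion had a pooled promoter peak, beside 44.8% of all protein-coding genes. In the IDR list 1 of the 3 had one, beside 20.3% of all protein-coding genes. Rab26, which in mammals links synaptic vesicles to autophagy, had a peak at chr3L:21321832-21322215 on a soft-masked base, 357 bp upstream of an internal TSS and 3250 bp from the 5' end of the gene. Its signals were 179.8 (rank 3343) in the pooled list, 73.6 (rank 3888) in replicate 2 and 102 (rank 3809) in replicate 3. Rab3, the Rab of synaptic vesicles, had 60.0 (rank 14964) in the pooled list, 38.1 in replicate 2 and 21.6 in replicate 3. Rab27, of regulated secretion, had 33.8 (rank 28362), 25.5 and 21.6 in the same order, in a region shared with mei-38. The Rab3 and Rab27 values in replicate 3 were next to that list's lowest signal, 21.5.

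Of the other 12 Rab genes 2 had an IDR promoter peak (16.7%), beside 20.3% of all protein-coding genes. Rab39 had the second strongest promoter peak of the family at chrX:7734524-7734672, with signals of 387 (rank 992) in the pooled list, 142 (rank 1149) in replicate 2 and 248 (rank 984) in replicate 3. That summit lay 301 bp upstream of Rab39 but only 29 bp downstream of the TSS of the divergent gene Pdp. Rab32, known in the fly for making eye pigment granules, had a peak 1 bp from a TSS at chr2R:9186149-9186532. The Rab32 signals were 240.4 (rank 2113), 145 (rank 1124) and 109 (rank 3456), so it stood higher in the order of replicate 2. A further IDR peak in a Rab32 intron, 282 bp downstream of the TSS of lncRNA:CR44284, had 147 (rank 4462), 76.7 (rank 3598) and 68.6 (rank 6855).

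Below the IDR list in this group stood Rab40, Rab23, Rab19 and RabX6. Rab40, whose mammalian relatives join ubiquitin ligase complexes, had 108 (rank 7030) in the pooled list, 51.7 in replicate 2 and 57.3 in replicate 3, and its summit lay 26 bp from the divergent gene CG42258. Rab23, a planar cell polarity gene, had 87.1 (rank 9320) in the pooled list, 49.4 in replicate 2 and 62.0 in replicate 3. That summit was 413 bp upstream of Rab23 and 8 bp from plx, which encodes a protein with a Rab-GAP domain. Rab19 had 80.1 (rank 10410) in the pooled list and 65.7 in replicate 3 but no promoter peak in replicate 2, and RabX6 had 49.4 (rank 18950) in the pooled list and 34.0 in replicate 2 but none in replicate 3, in a region shared with CG32483. RabX1 had a promoter peak in the replicate 2 list alone, with 62.6 (rank 5081) 71 bp upstream of its TSS, and pooled peaks of 33.4 and 32.3 inside the gene.

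No summit in any list fell at a TSS or in the body of 6 Rab genes: Rab4, Rab9D, Rab9E, RabX2, RabX4 and RabX5. Of all 13945 protein-coding genes, 6310 had no promoter summit in any list, a count that leaves gene bodies aside. The nearest pooled summit to a TSS of these genes was 1355 bp away, for RabX5, and the farthest was 21250 bp away, for Rab9E. Absence from a list says only that no peak reached it, as the reads behind the lists were not analysed here. Rab9D and Rab9E are close relatives, and how reads that match both were handled is not given in the sources used here.

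**Figure D2:**
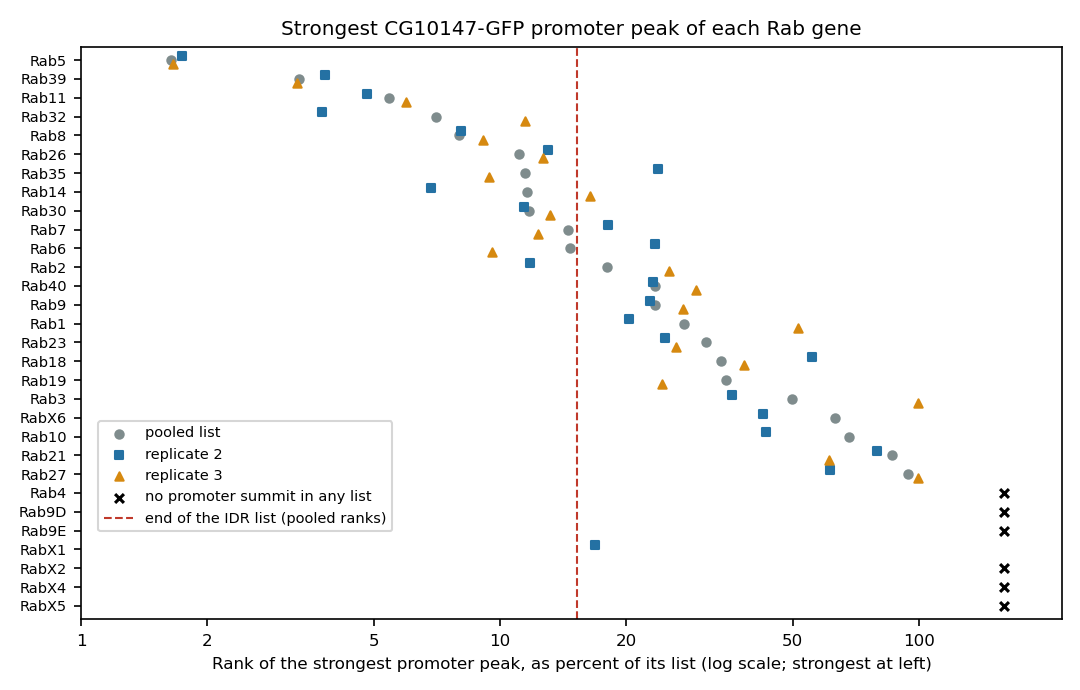
Rank of the strongest promoter peak of each Rab gene, as percent of the list (log scale, stronger peaks to the left), in the pooled, replicate 2 and replicate 3 lists, with a dashed line at the end of the IDR list (pooled ranks) and crosses for the 6 Rab genes with no promoter peak in any list. Rab5 stood within the top 1.74% of both the pooled and replicate 2 lists, while Rab3 and Rab27 lay near the end of the replicate 3 list. Of all 13945 protein-coding genes, 6310 had no promoter peak in any list.

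For all 11 IDR promoter peaks, each replicate list held a summit at most 100 bp away. The same held for 2034 of the 2306 IDR peaks at protein-coding promoters. The IDR list was made from these same replicates, so such a match is not independent support. In the 4576 strongest peaks of a replicate, 8 of the 11 were matched in replicate 2, 10 in replicate 3 and 7 in both. These last counts were not made over all IDR promoter peaks. The genes missing from the strongest peaks of replicate 2 were Rab6, Rab7 and Rab35, and the gene missing from those of replicate 3 was Rab14. Over the 20 Rab genes with a promoter peak in both replicate lists, Spearman's rank correlation of the strongest signals was 0.75, as a description, since the genes share both libraries. A gene's strongest peak could be a different site in each list. At Rab1 it lay at -194 bp in replicate 2 and at 433 bp in replicate 3. The correlation over all genes was not computed.

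**Figure D3:**
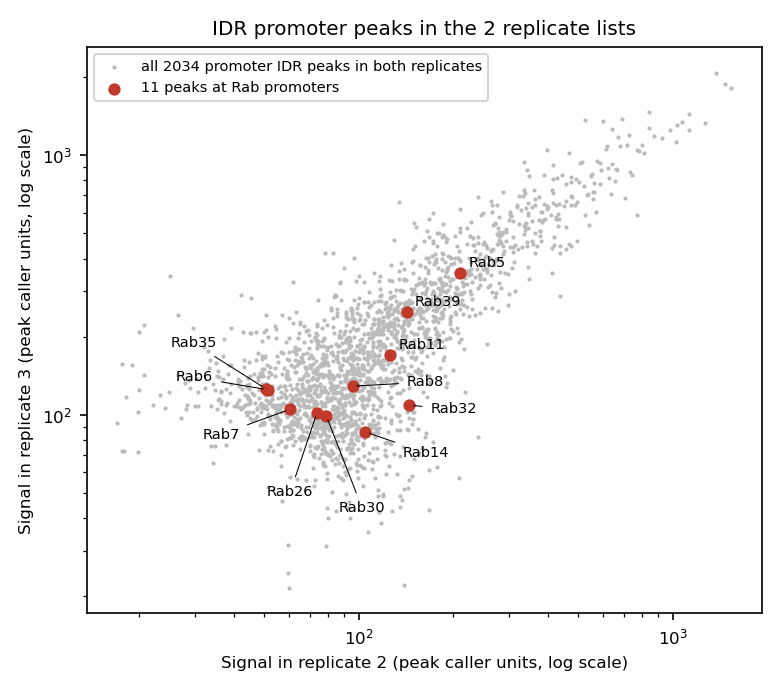
Signal in replicate 2 (x axis) against signal in replicate 3 (y axis), both log scales in peak caller units, for IDR promoter peaks with a summit in each replicate list. The 11 Rab peaks (red) lie inside the cloud of 2034 peaks at protein-coding promoters, with Rab5 at 210.4 and 352, and Rab35 at 50.6 and 126.

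Compared with other IDR promoters, the Rab peaks were modest in signal. Their median was 179.8, while the median over the 2306 IDR peaks at protein-coding promoters was 238, with quartiles of 179 and 387. Only 4 of the 11 Rab peaks were above that median (Rab5, Rab39, Rab11 and Rab32), and 5 were below the lower quartile (Rab35, Rab14, Rab30, Rab7 and Rab6). The 11 IDR summits had a median distance of -61 bp from the TSS and a range from -357 to 104. Upstream summits numbered 7 and downstream ones 4. In the replicate 3 list the median over 21 Rab genes was -10 bp. The median over all IDR promoter peaks was not computed.

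**Figure D4:**
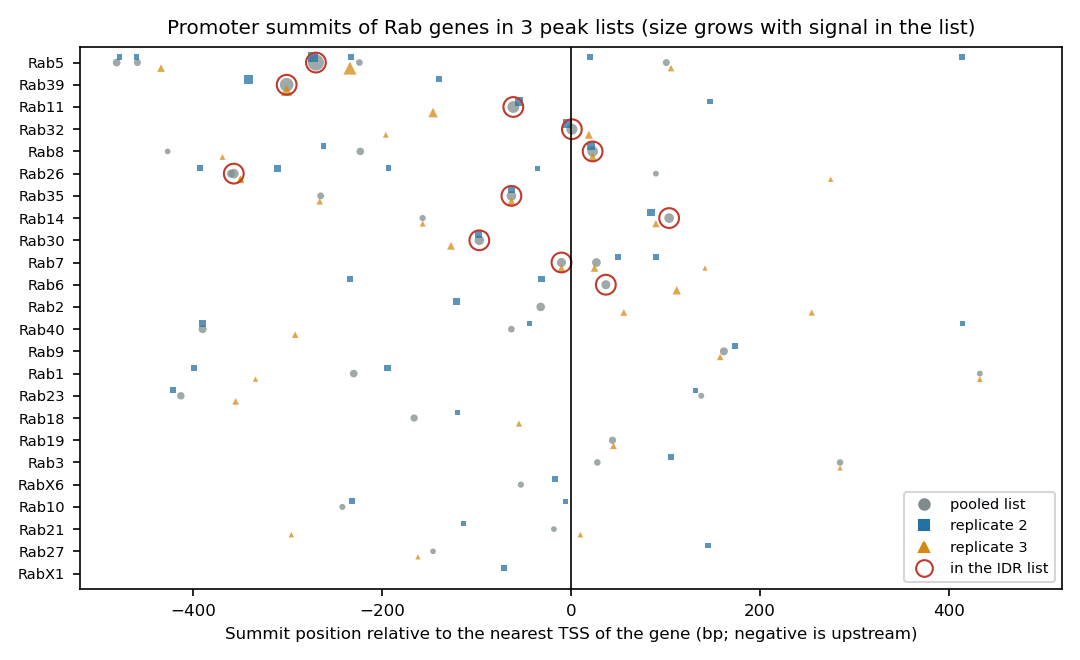
Distance of each promoter summit from the nearest TSS of its Rab gene (bp, negative upstream) in the pooled, replicate 2 and replicate 3 lists, with markers that grow with the signal in their own list and red rings around IDR summits. The 11 IDR summits lie between -357 and 104 bp.

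Many of these promoters are shared with a neighbour. A gene was called divergent when another gene's TSS on the opposite strand lay within 500 bp upstream of one of its own. By this rule 16 of the 30 Rab genes were divergent, beside 4134 of all 13945 protein-coding genes. Of the 16 divergent Rab genes 8 had an IDR promoter peak, and of all divergent protein-coding genes 36.7% had one. The other 14 Rab genes had 3, beside 13.4% of other protein-coding genes. At 6 of the 11 IDR summits a second gene also had its TSS within 500 bp, and for Rab39 and Rab30 that TSS was the nearer. At Rab5 and Rab26, both called divergent, the IDR summit lay at an internal TSS with no other gene's TSS within 500 bp. The share of shared summits over all IDR promoter peaks was not counted. The peak lists cannot assign a shared summit to either gene.

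The number of TSSs also moved with the calls. Of the 9 Rab genes with several TSSs 6 had an IDR promoter peak, and of the 21 with 1 TSS 5 had one. The shares over all protein-coding genes were 34.2% with several TSSs and 15.3% with 1. The 11 Rab genes with an IDR promoter peak had a median length of 3620 bp and the other 19 a median of 1745 bp. Of the 5 Rab genes on each of 2L, 2R, 3L and 3R, an IDR promoter peak was present at 4, 1, 2 and 2, beside 20.1%, 19.0%, 21.7% and 21.2% of all protein-coding genes there. On the X it was 2 of 10 Rab genes and 19.6% of all genes. The parts of TSS number, length and divergence in these counts were not tested.

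Inside the genes, 8 of the 30 Rab genes (26.7%) had an IDR summit in the gene body, beside 12.2% of all protein-coding genes. The pooled list had one in 18 Rab genes and 31.3% of all genes, replicate 2 in 18 and 35.4%, and replicate 3 in 19 and 32.5%. Only 4 Rab genes had an IDR body summit over 500 bp from their own TSSs (Rab9, Rab11, Rab14 and Rab32), beside 7.35% of all genes. All 4 of those summits were intronic, and none lay in coding sequence or a UTR; with the 11 at promoters they make up the 15 IDR summits of the Rab genes.

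**Figure D5:**
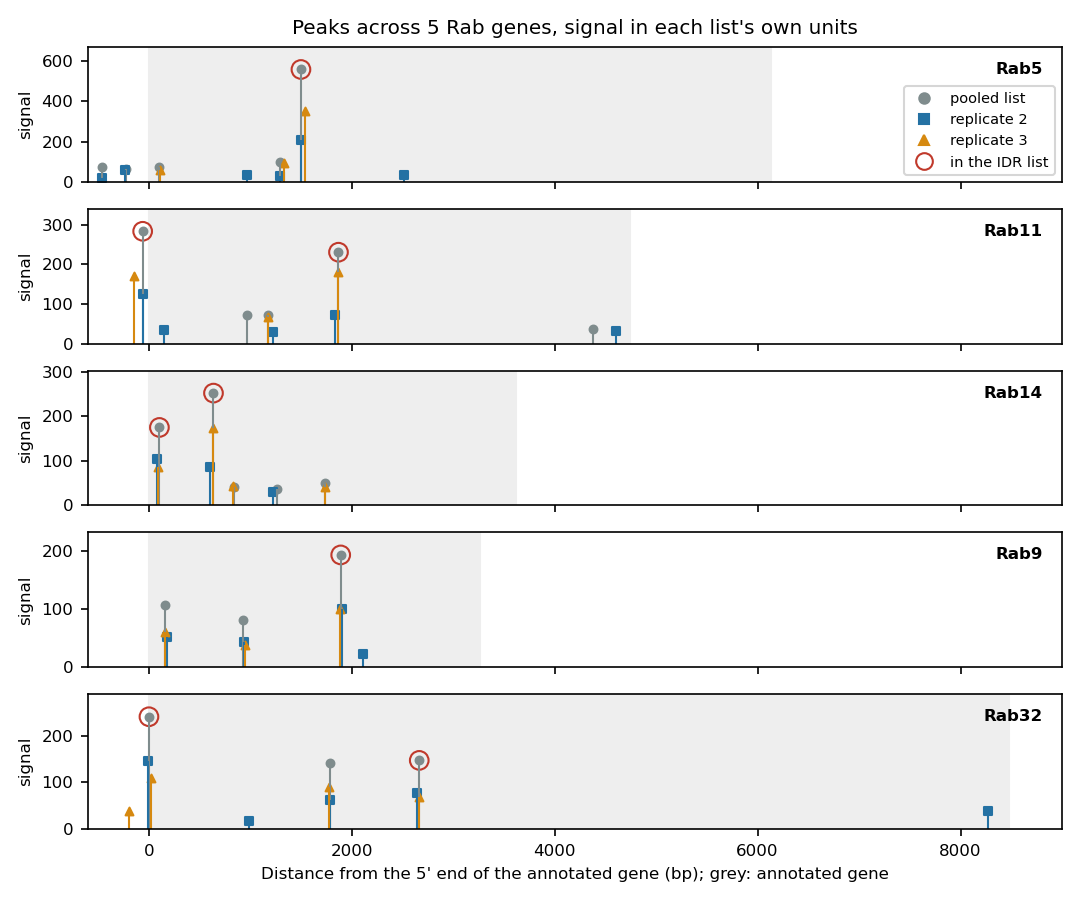
Summits across Rab5, Rab11, Rab14, Rab9 and Rab32 by distance from the gene's 5' end (bp) and signal in the units of each list, with IDR summits ringed. The ringed Rab5 summit stands 1499 bp into the gene, and Rab11, Rab14 and Rab32 each have 1 ringed summit near the 5' end and 1 farther inside.

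The windows of 300 bases around the 11 Rab summits were searched on both strands for a set of short motifs. The palindrome TATCGATA, the site of the promoter factor Dref, occurred in 5 of the 11 Rab windows and in 10.8% of the 2306 windows at IDR promoters. The genes were Rab6, Rab7, Rab8, Rab30 and Rab35, none of which had a signal above 222. Their sites are shown because this motif exceeded its share of all windows the most. The Rab14 and Rab26 windows, with signals of 175 and 179.8, did not hold it. Each line has 40 bases on the strand of the Rab gene, from the same RefSeq genome, with the motif in capitals; for Rab35, which has 2 sites, the one nearer to the summit is given.
Rab6 chr2L:12109145-12109184, minus strand: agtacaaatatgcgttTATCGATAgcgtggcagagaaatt
Rab7 chr3R:23992975-23993014, plus strand: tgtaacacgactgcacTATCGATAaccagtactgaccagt
Rab8 chr3L:19871073-19871112, minus strand: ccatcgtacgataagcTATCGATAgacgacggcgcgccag
Rab30 chr2L:7032630-7032669, minus strand: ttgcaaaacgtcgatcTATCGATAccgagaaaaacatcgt
Rab35 chrX:20159861-20159900, minus strand: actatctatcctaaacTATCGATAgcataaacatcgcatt
The site nearest the summit was 4 bp from it at Rab7, 37 bp at Rab8, 54 bp at Rab30, 55 bp at Rab35 and 85 bp at Rab6. All 5 sites lay 8 to 48 bp upstream of a TSS of the Rab gene. Among all IDR promoter windows the motif was in 7.72% of the 1153 stronger and 13.9% of the 1153 weaker; this difference was not tested. A match is not evidence that any factor was bound there.

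After these motif counts were seen, the stretch from 250 bases before to 50 bases after each TSS was searched for the same motif. It was found at 11 of the 30 Rab genes (36.7%) and 10.2% of all protein-coding genes. Of the 11 Rab genes with an IDR promoter peak 6 had it, the same 5 and Rab14, and of the other 19 Rab genes 5 had it (Rab2, Rab19, Rab27, Rab40 and RabX6). Over all protein-coding genes it was in 16.9% of those with an IDR promoter peak and 8.44% of those without. The site was thus present at Rab promoters both with (54.5%) and without (26.3%) an IDR peak, a difference that was not tested.

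The other motifs were at or below their share of all IDR promoter windows, or rare. AAAATAT was in 4 Rab windows (Rab7, Rab8, Rab11 and Rab39) and 37.8% of all windows, TTTAAAA in 3 (Rab5, Rab6 and Rab11) and 33.5%, and TAAAATA in 1 (Rab39) and 29.5%. TATAAA was in 3 (Rab5, Rab11 and Rab32) and 47.7%, and GAGAG, the site of the GAGA factor, in 3 (Rab7, Rab14 and Rab32) and 31.2%. The E-box CACGTG was in the Rab5 window and 4.16% of all windows, and CAGCTG in the Rab8 window and 19.6%. The cAMP response element TGACGTCA was in no Rab window and 0.650% of all. The 3 A+T-rich words can overlap each other. The Rab windows were 38.7% ± 5.89 G+C (SD over 11 windows) and all windows 36.9% ± 6.71 (SD over 2306 windows), a difference smaller than either spread.

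The genes that act on Rab proteins were listed from their known roles. Of 83 regulators and effectors, 29 (34.9%) had an IDR promoter peak, beside 20.3% of all protein-coding genes. Of the 5 genes of prenylation and recycling 3 had one, at temp (325), Rep, the Rab escort protein (277), and RabGGTb, a prenyltransferase subunit (183). Gdi, which extracts Rab proteins from membranes, had a pooled promoter peak of 60.9. Of 24 GEF genes 9 had one, led by Bulli (1540.2), Mon1 (615), SIDL (342) and spri (319). Bulli, Mon1 and Ccz1 form the GEF of Rab7. Bulli had the strongest peak of these lists of regulators, and its summit also lay within 500 bp of a TSS of CG10147, the precipitated protein's own gene. Ccz1 had 142 (rank 4688) in the pooled list, just outside the IDR list, and Rab7 had 149.6.

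Of 14 GAP genes 7 had an IDR promoter peak, with the highest signals at TBC1d7 (479.9), Rab3GAP1 (323), GAPcenA (307) and sky (289.6). Of 40 effectors and tethers 10 had one, nearer the 20.3% of all genes than the other lists of regulators, led by Rbsn-5, an effector of Rab5 (642), Vps15, a subunit of the endosomal lipid kinase complex (541), GCC185 (378) and Sec6, a subunit of the exocyst (369). Among other small GTPases, 13 of 32 (40.6%) had one, again beside 20.3% of all genes. The 13 Arf and Arl genes among them held 5, led by Arl1 (1583), Arl8 (303), Arl5 (275) and Arl2 (181). The promoter peaks at Arl1 and Bulli were thus well above the strongest Rab peak, 559 at Rab5. Except at spri, sky and Vps15, each IDR summit named for these lists also lay within 500 bp of another gene's TSS. Examples were mRpS2 at Mon1, Myo95E at TBC1d7, PAPLA1 at Rbsn-5 and brm at Arl1. The peak lists cannot assign a shared summit to either gene. TATCGATA lay between 250 bases before and 50 after a TSS of 18 (21.7%) of the regulators and effectors. It was likewise found at 8 of the 32 other small GTPases (25.0%), beside 10.2% of all protein-coding genes. Among protein-coding genes with an IDR promoter peak its share was 16.9%.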

How the data were processed

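Anti-GFP ChIP-seq peaks of CG10147-GFP embryos were analysed for biological replicates 2 and 3, which form 1 group. Each peak's signal and its significance, as −log10 of a q-value, were deposited by the authors; the labels give the assembly dm6. Which peak caller, aligner and read filters were used is not given in the sources used here. Depth behind each peak is unknown. The −log10 values stop at 4.13 in the pooled list deposited by the authors, so signal was used for ranks. The summit position, a column of another kind in the same files, was also deposited by the authors.

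Summits were joined to Ensembl release 115 (FlyBase 6.54) genes, and sequence was read from the RefSeq Release 6 genome, with Python 3.11.15, numpy 2.4.6 and pandas 2.3.3. Annotated transposable elements were left out. Counting was checked on simulated peaks. Of 124 symbols written for Rab regulators, effectors and other small GTPases, 115 genes were matched, 5 by synonym, and 8 symbols were not. Every Rab gene is named; of each other list, up to 4 genes with the strongest IDR promoter peaks and those sharing a summit with a Rab gene or CG10147 are named, and Ccz1, Gdi and the genes of motif lists were added after their values were seen. The named genes of 1 list of small GTPases are not reported here. The members, lists and motifs were chosen with earlier results of these data known. No test was made, since there is 1 group. Alternatives varied the window, the list and the replicates.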

Additional observations from a re-analysis of the deposited data

How the results depend on the processing

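No paired analysis was possible because the series has 1 group. Of 38 alternatives of counts and distances, 30 stayed within 1.5 times the reported count or, for distances, the spread between replicates, and 8 moved. IDR peaks above the list's median rank left 4 of 30 Rab genes with a promoter peak (13.3%), close to the 11.9% of all protein-coding genes, 26 instead of 42 genes of the other lists, and 4 instead of 8 Rab genes with a body peak (7.06% of all genes). Leaving out bases within 500 bp of the gene's own TSSs left 4 body genes (7.35% of all genes), and adding 2000 bp on both sides gave 17 of 30 (34.7% of all genes). Of the 20 Rab genes with a promoter peak in both replicate lists, 7 had one among the strongest 4576 of each (15.0% of all genes), and 11 had an IDR summit matched in both (18.3% of all genes). The median distance was -10 bp in the replicate 3 list and -61 bp in the main one.

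The number of Rab genes with a promoter peak was 9 to 10 with 1 replicate left out and the 4576 strongest peaks of the other used (20.6% of all genes in either). The replicate 2 list alone lost Rab6, Rab7 and Rab35 and gained Rab2, and the replicate 3 list alone lost Rab14. Body counts were 7 to 8 and counts for the other lists 40 to 52. A window of 200 bp gave 8 Rab genes (14.7% of all genes), without Rab5, Rab26 and Rab39, and one of 1000 bp gave 12 (23.3% of all genes), with Rab18. Without soft-masked summits 10 remained (Rab26 was lost; 15.2% of all genes), and with the 5' end of the gene as its only TSS 9 (Rab5 and Rab26 were lost; 18.2% of all genes). Of 43 comparisons of a gene's rank in a replicate list with its pooled rank, 31 were within 1.5 times and 12 moved. The cause of these changes was not tested. Depth is unknown, so the weak peaks of the full lists cannot be given an error.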
